A study of Mus musculus with 9 samples.

Results

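Frizzled receptors are the membrane proteins that bind secreted Wnt ligands at the cell surface, and the mouse genome encodes 10 of them, *Fzd1* to *Fzd10*. Every RefSeq transcript row of these genes was taken from the table of estimated counts, which gave 16 of 107384 rows and 10 of the 21254 protein-coding genes with a row. The counts come from RNA immunoprecipitation-sequencing (RIP-seq), in which an antibody pulls down an RNA-binding protein and the RNA that comes with it is sequenced. The protein was CELF2, an RNA-binding protein of the nervous system. All 9 libraries, controls included, were made from cortices of heterozygous *Celf2* knock-in (KI) mice carrying the p.R493H variant at postnatal day 0, a line made by genome editing, and from the cytoplasmic fraction only. The 3 conditions had 3 libraries each, namely CELF2-KI RIP pulled down for 3 hours with a rabbit antibody to CELF2 (10 µg), IgG RIP with the same amount of normal rabbit IgG for the same time, and input, an aliquot of the fraction taken before any antibody was added. The labels call the libraries biological replicates without saying whether animals were pooled, and no wild-type library was analysed here, so each value below compares RNA pulled down with CELF2 from KI cortex with its controls and not KI with wild-type cortex. Markers of neurons, radial glia, astrocytes, oligodendrocyte precursors, microglia and endothelial cells were detected in the input libraries, except that the microglia marker *Csf1r* was at 0 in all 3 of them. In such bulk samples, fewer cells of a type and less RNA per cell cannot be told apart.

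A Wnt ligand binds the extracellular cysteine-rich domain of a Frizzled, which then recruits Dishevelled inside the cell. With an LRP5 or LRP6 coreceptor this stabilizes β-catenin (the canonical branch), and without it Frizzleds act in noncanonical branches such as planar cell polarity, which orients cells and guides growing axons in the developing brain. By sequence the receptors fall into the subfamilies FZD3/FZD6, FZD1/FZD2/FZD7, FZD5/FZD8, FZD4 alone and FZD9/FZD10, and the results are given in that order. Several Wnt ligands and Frizzled receptors were picked out by the study on these same libraries, so the direction of those genes here is not independent evidence.

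Total estimated counts per library ranged from 15919600 to 20052716 for CELF2-KI RIP, 17365561 to 28773130 for IgG RIP and 69125700 to 105116427 for input, and protein-coding genes held 84.0% to 85.3%, 52.0% to 74.2% and 74.7% to 80.2% of them. The Frizzled genes together held 15028.0 to 24113.5 counts per CELF2-KI RIP library, 4495.5 to 7081.0 per IgG RIP library and 31514.3 to 49761.7 per input library. Values per library are CPM, counts scaled to a common total of protein-coding counts, with library sizes scaled by the trimmed mean of M values (TMM). They are not divided by transcript length, so levels are compared between conditions and not between genes. All 10 Frizzled genes passed the filter on low counts, among 15267 protein-coding genes tested. Calls needed an FDR under 0.01, adjusted over all tested genes by edgeR's quasi-likelihood test, together with an estimate of 2-fold or more, and a gene called higher over both IgG RIP and input is a target. The p-values measure the spread between these libraries.

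At the FDR alone, 9 of the 10 Frizzled mRNAs were more abundant in CELF2-KI RIP than in IgG RIP (22.9% of all tested genes) and 7 than in input (26.8%), and those that also reached 2-fold over both controls were fewer. With total counts, upper quartiles or TMM over coding and noncoding genes in place of TMM the first number was 6, without *Fzd2*, *Fzd4* and *Fzd9*, and the second was 4, 6 and 4. *Fzd1*, *Fzd3*, *Fzd5*, *Fzd6* and *Fzd7*, 5 of 10 members, were targets, where 7.58% of all tested genes were. Over IgG RIP these 5 members were called higher (13.4% of all tested genes) and 0 lower (13.6%). Over input, *Fzd8* joined them to make 6 called higher (14.6% of all tested genes), with 0 lower (15.5%). No member was at an unadjusted p under 0.05 in the lower direction in either comparison, and DESeq2 called 0 lower. The shares of all tested genes for these last counts are not given. With total counts or TMM over coding and noncoding genes 1 member, *Fzd2*, was below input past the FDR and under 2-fold. In *Fzd1*, *Fzd3*, *Fzd4*, *Fzd5*, *Fzd6*, *Fzd7* and *Fzd8*, 7 of 10 members, each CELF2-KI RIP library lay above all 6 control libraries, where 25.2% of all tested genes were separated in this way. The median log2 fold change of the members was 1.01 over IgG RIP and 1.08 over input, against -0.06 and 0.19 for all tested genes. All 10 members lay above 0 over IgG RIP with TMM scaling, and *Fzd10* turned below 0 with total counts, upper quartiles or TMM over coding and noncoding genes. The scaling of the libraries moved every member together with the rest of the transcriptome. With total counts the medians of the members were 0.64 and 0.61 and those of all genes -0.42 and -0.27, which left *Fzd3* and *Fzd5* as 2 targets among 237 of all genes, whereas DESeq2 size factors left *Fzd1*, *Fzd3* and *Fzd5* among 836.

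**Figure D1:**
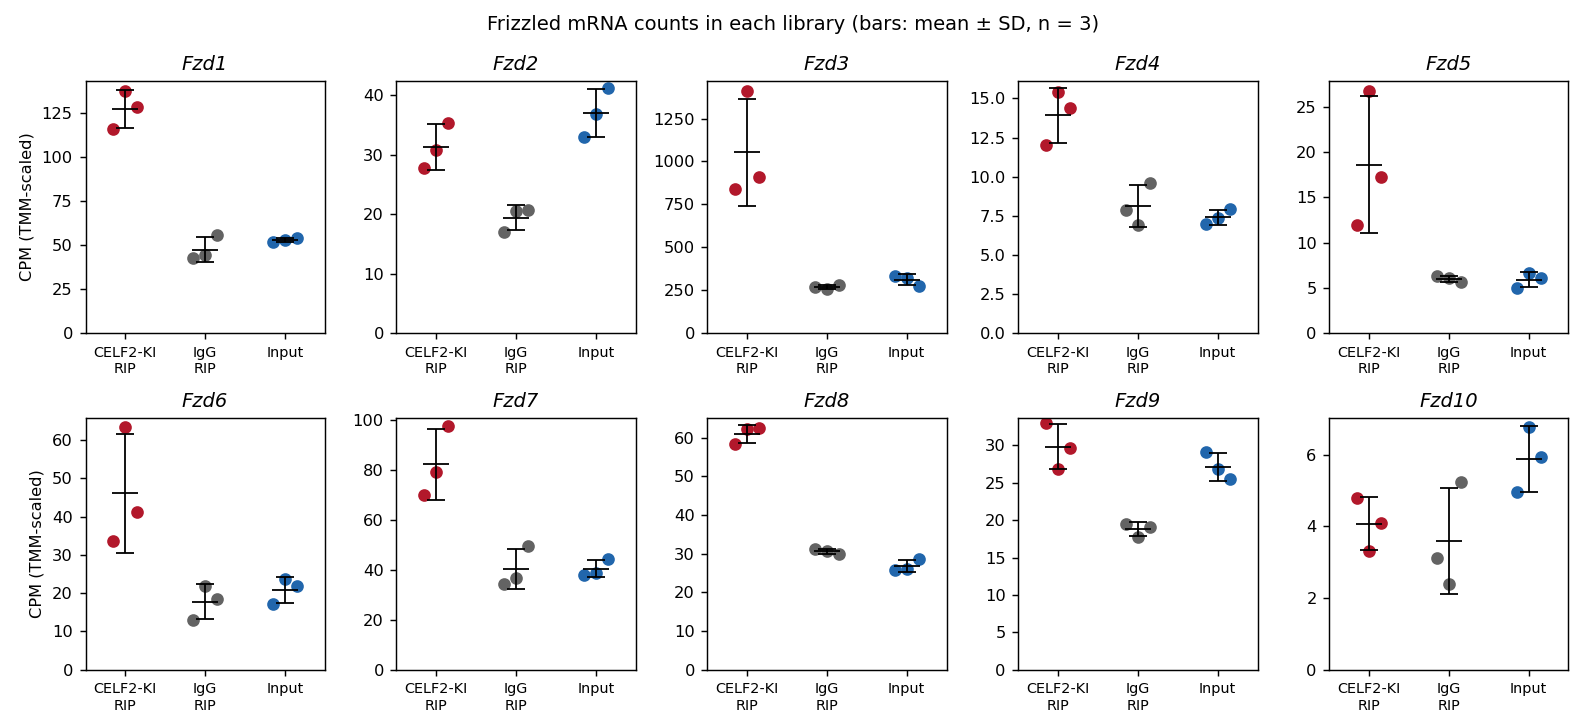
CPM of each Frizzled gene (TMM-scaled, linear axis from 0) in the 3 CELF2-KI RIP (red), 3 IgG RIP (gray) and 3 input (blue) libraries, with mean ± SD. The red points lie above all gray and blue points for 7 of 10 genes, and *Fzd2*, *Fzd9* and *Fzd10* do not show this separation.

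**Figure D2:**
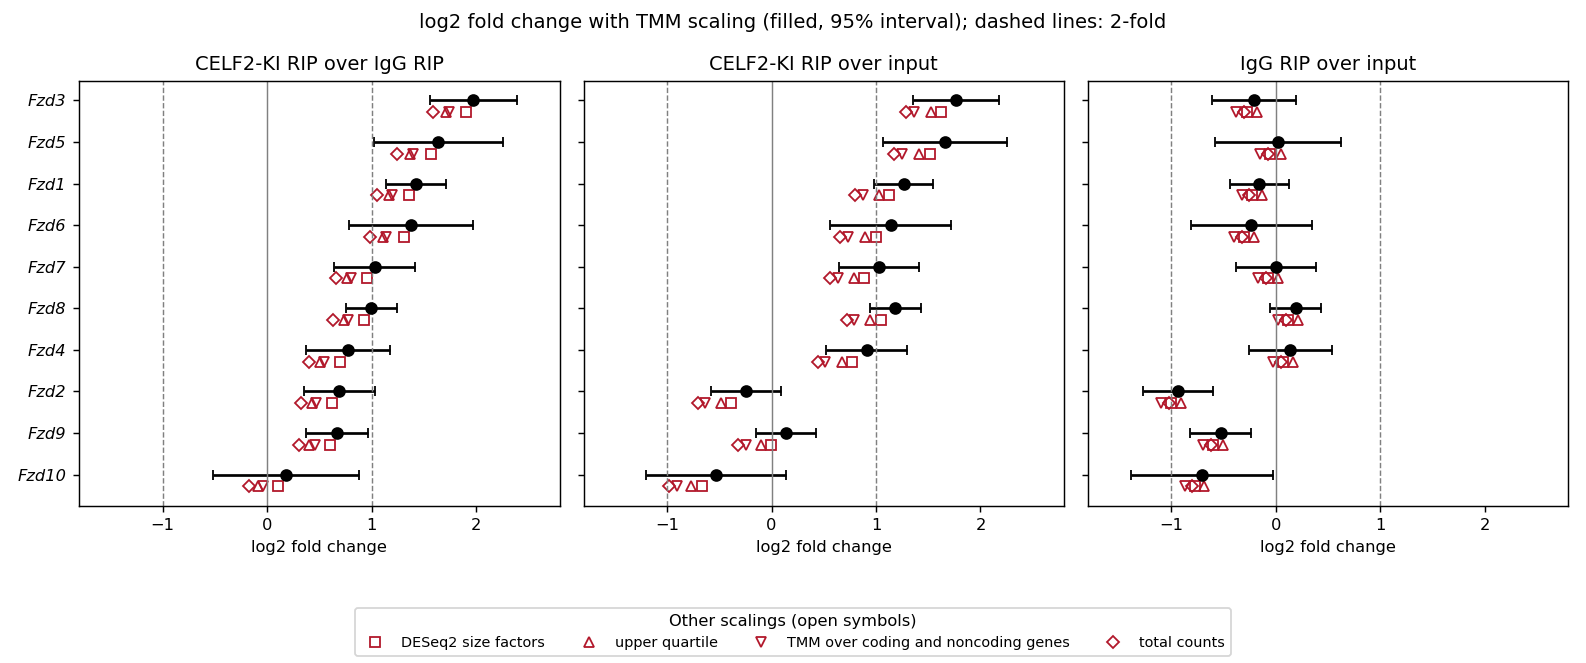
Log2 fold change of each Frizzled gene between conditions (filled circles, TMM scaling, bars for the 95% interval), with open symbols for 4 other ways to scale the libraries and dashed lines at 2-fold. *Fzd3* stood at 1.97 over IgG RIP and 1.77 over input, and *Fzd2*, *Fzd9* and *Fzd10* had the lowest values over both controls.

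*Fzd3* encodes a receptor best known for axon guidance and planar polarity, where it works with *Celsr3*, and with all transcript rows summed it showed the largest rise of the family over both controls, whereas *Fzd6* had the larger estimate over IgG RIP with curated (NM_) or version-matched rows only. The gene lies at chr14:65192441-65262463 (GRCm38.p6) and has 1 transcript row. Its level was 841, 1411 and 910.1 CPM with the CELF2 antibody, 268, 258 and 279 CPM with IgG and 333, 322 and 274 CPM in the input libraries, in replicates 1, 2 and 3. The CELF2-KI RIP libraries stood apart from every control, and replicate 2 was the highest of them. The level rose from 268 ± 10.2 CPM (SD, n = 3) in IgG RIP and 309.9 ± 31.6 CPM (SD, n = 3) in input to 1054 ± 311 CPM (SD, n = 3) in CELF2-KI RIP. These changes amounted to 3.93-fold over IgG RIP (log2 1.97 ± 0.19 SE, 95% interval 1.56 to 2.39; edgeR FDR = 1.92e-05) and 3.40-fold over input (log2 1.77 ± 0.18 SE; edgeR FDR = 2.88e-05). Of all tested genes, 98.3% had a smaller log2 fold change over IgG RIP and 98.1% over input. *Fzd3* was the only member called a target when the 2-fold change itself was tested (edgeR glmTreat, 121 targets among all genes).

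*Fzd6*, the closest relative of *Fzd3* and a planar polarity receptor of skin and hair, lies at chr15:39006149-39038192. Its level was 33.6, 63.4 and 41.3 CPM with the CELF2 antibody, 13.1, 22.0 and 18.4 CPM with IgG and 17.1, 23.7 and 21.9 CPM in the input libraries. The CELF2-KI RIP values did not overlap those of the controls, but they were spread from 33.6 to 63.4 CPM and replicate 2 was again the highest. The gene rose by log2 1.38 ± 0.27 SE over IgG RIP (edgeR FDR = 0.00145) and 1.14 ± 0.26 SE over input (edgeR FDR = 0.00343). Without CELF2-KI RIP replicate 2 the value over input was 0.84 and no longer passed (edgeR FDR = 0.0138), and without input replicates 1, 2 or 3 it was 1.01, 1.12 and 1.17 at an edgeR FDR of 0.0182, 0.0127 and 0.0127. Of its 6 transcript rows 4 are predicted (XM_) rows. With NM_ rows only the value over IgG RIP was 2.18 (edgeR FDR = 0.0481) and with version-matched rows only 2.21 (edgeR FDR = 0.0368), and neither was called. The value over input was under 2-fold with each of the 4 other scalings (0.66 to 0.997).

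The subfamily of *Fzd1*, *Fzd2* and *Fzd7*, receptors with overlapping roles in the closing of the palate and in heart development, split in these data. *Fzd1* (chr5:4753839-4758216) and *Fzd7* (chr1:59482147-59486955) were targets and *Fzd2* (chr11:102604431-102608058) was not. *Fzd1* was at 116, 138 and 129 CPM with the CELF2 antibody, 42.6, 44.4 and 55.5 CPM with IgG and 52.0, 53.0 and 54.3 CPM in the input libraries. Its libraries were close together within each condition, and those of CELF2-KI RIP stood far above the other 6. It rose by log2 1.43 ± 0.13 SE over IgG RIP (edgeR FDR = 1.57e-05) and 1.27 ± 0.13 SE over input (edgeR FDR = 2.27e-05), and the latter was under 2-fold with total counts (0.80) or TMM over coding and noncoding genes (0.87). For *Fzd7*, the level was 69.9, 79.0 and 97.5 CPM with the CELF2 antibody, 34.4, 36.9 and 49.5 CPM with IgG and 38.1, 38.7 and 44.2 CPM in the input libraries. CELF2-KI RIP did not overlap the controls, and the estimates sat just past the 2-fold line, at log2 1.03 ± 0.17 SE over IgG RIP (edgeR FDR = 0.000617) and 1.03 ± 0.17 SE over input (edgeR FDR = 0.000508). With each of the 4 other scalings both values were under 2-fold. *Fzd7* was a target in 4 of 9 fits with 1 library removed. It dropped under 2-fold over at least 1 control without CELF2-KI RIP replicate 3 (log2 0.89 over IgG RIP), IgG RIP replicate 1 (0.92), IgG RIP replicate 2 (0.98), input replicate 1 (0.98 over input) or input replicate 2 (0.92 over IgG RIP). *Fzd2*, in contrast, was at 27.7, 30.8 and 35.3 CPM with the CELF2 antibody, 17.0, 20.5 and 20.6 CPM with IgG and 33.0, 36.9 and 41.2 CPM in the input libraries. CELF2-KI RIP lay above IgG RIP and overlapped input. Its log2 fold change was 0.69 ± 0.15 SE over IgG RIP, past the FDR but under 2-fold (edgeR FDR = 0.00316), and -0.24 ± 0.15 SE over input (95% interval -0.57 to 0.09; edgeR FDR = 0.179). The value over input was -0.71 with total counts (edgeR FDR = 0.00239), -0.64 with TMM over coding and noncoding genes (edgeR FDR = 0.00621) and -0.47 with the replicate block in CELF2-KI RIP and input alone (edgeR FDR = 0.00865).

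*Fzd5* and *Fzd8* form another pair of relatives, with *Fzd5* known for eye and gut development and *Fzd8* for its expression in cortical progenitors. *Fzd5* (chr1:64730558-64737750) was at 11.9, 26.8 and 17.2 CPM with the CELF2 antibody, 6.26, 6.05 and 5.66 CPM with IgG and 5.01, 6.64 and 6.06 CPM in the input libraries. These values rest on few counts, namely 149, 348 and 193 with the CELF2 antibody, 100, 61 and 79 with IgG and 315, 603 and 375 in input. All CELF2-KI RIP libraries exceeded the controls, which lay within a narrow band, and replicate 2 was the highest, as it was for *Fzd3* and *Fzd6*. The rise was log2 1.64 ± 0.28 SE over IgG RIP (edgeR FDR = 0.000618) and 1.66 ± 0.27 SE over input (edgeR FDR = 0.000405), with wide 95% intervals of 1.02 to 2.25 and 1.06 to 2.25. *Fzd8* varied little between libraries, at 58.4, 62.1 and 62.5 CPM with the CELF2 antibody, 31.2, 30.6 and 29.9 CPM with IgG and 25.8, 26.0 and 28.7 CPM in the input libraries. The 3 conditions were fully separated, with input below IgG RIP and IgG RIP below CELF2-KI RIP. *Fzd8* rose over input (log2 1.18 ± 0.11 SE; edgeR FDR = 1.47e-05), a call that was lost under 2-fold with total counts (0.72), TMM over coding and noncoding genes (0.79), upper quartiles (0.95) or the CELF2-KI RIP and input libraries alone (0.96 with or without the replicate block), and in the test of 2-fold itself. Over IgG RIP it stopped just under 2-fold, at 1.99-fold (log2 0.996 ± 0.11 SE, 95% interval 0.75 to 1.24; edgeR FDR = 4.5e-05), and was therefore not a target. It became one in 5 of 9 fits with 1 library removed, with log2 fold changes over IgG RIP of 1.03 without CELF2-KI RIP replicate 1 and 1.01 without IgG RIP replicate 1, IgG RIP replicate 2, input replicate 1 or input replicate 3. The 2-fold line therefore lay between *Fzd7* and *Fzd8*, although their log2 changes over IgG RIP were close, at 1.03 and 0.996. The ratio of *Fzd7* to *Fzd8* overlapped between CELF2-KI RIP and IgG RIP (exact permutation test, two-sided, p = 0.9, n = 3 against 3). The smallest p possible with 3 against 3 libraries is 0.1, so the test could not have established a difference.

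*Fzd4*, the receptor for Norrin (encoded by *Ndp*) in blood vessels of the retina and brain, lies at chr7:89404366-89410110. Its level was 12, 15.4 and 14.4 CPM with the CELF2 antibody, 7.88, 6.94 and 9.60 CPM with IgG and 6.96, 7.35 and 7.92 CPM in the input libraries. CELF2-KI RIP was above every control, at estimates under 2-fold in both comparisons (log2 0.77 ± 0.18 SE over IgG RIP, edgeR FDR = 0.00444, and 0.91 ± 0.18 SE over input, edgeR FDR = 0.00129). Without CELF2-KI RIP replicate 1 it was called higher over input, at log2 1.01. *Fzd9* (chr5:135248938-135251047), a gene of the region deleted in Williams syndrome, was at 33.0, 26.9 and 29.7 CPM with the CELF2 antibody, 19.5, 17.7 and 19.1 CPM with IgG and 29.1, 26.9 and 25.5 CPM in the input libraries. It lay above IgG RIP in each library and overlapped input. Its log2 fold change was 0.67 ± 0.13 SE over IgG RIP (edgeR FDR = 0.00172, under 2-fold). Over input it was 0.14 ± 0.13 SE (95% interval -0.15 to 0.43; edgeR FDR = 0.384), a value that turned below 0 with each of the 4 other scalings. *Fzd10* (chr5:128601106-128604093), which marks the dorsal midline of the neural tube, had the fewest counts of the family in each RIP library. It had 60, 43 and 46 counts with the CELF2 antibody, 50, 24 and 73 with IgG and 311, 614 and 367 in the input libraries, where *Fzd5* had about as few. On the CPM scale these were 4.80, 3.31 and 4.11 CPM with the CELF2 antibody, 3.13, 2.38 and 5.23 CPM with IgG and 4.94, 6.76 and 5.94 CPM in the input libraries. CELF2-KI RIP overlapped IgG RIP and lay just under input. Neither difference passed (log2 0.18 ± 0.31 SE over IgG RIP, 95% interval -0.52 to 0.88, edgeR FDR = 0.66; -0.53 ± 0.30 SE over input, 95% interval -1.20 to 0.14, edgeR FDR = 0.153), and a change of *Fzd10* within these intervals was not detectable in these libraries.

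**Figure D3:**
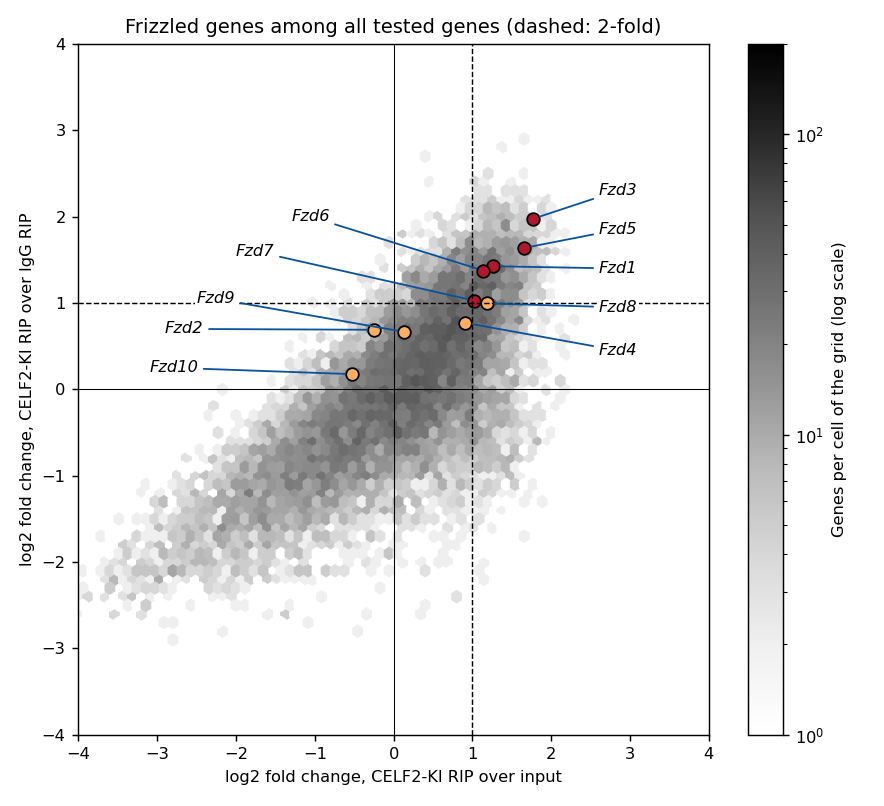
Change over input (x axis) against change over IgG RIP (y axis) in CELF2-KI RIP, both as log2 fold changes, for 15125 tested genes as gray cells shaded by number (142 genes lie outside the axes) and the 10 Frizzled genes as circles, red for targets and orange for the rest. Both axes share the CELF2-KI RIP libraries. *Fzd3*, *Fzd5*, *Fzd1*, *Fzd6* and *Fzd7* lie beyond both dashed 2-fold lines, and *Fzd8*, at 0.996 over IgG RIP, sits on the horizontal one.

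IgG RIP was compared with input to see what came down without the CELF2 antibody. Of the 10 members, 0 were called higher (6.79% of all tested genes) and 0 lower (5.0%) by edgeR. At an unadjusted p under 0.05, 0 were higher and 3 lower, and DESeq2 called 0 higher and 1, *Fzd2*, lower. *Fzd2* and *Fzd9* passed the edgeR FDR alone, both downward and with ranges that did not overlap. The shares of all tested genes at the unadjusted p, by DESeq2 or at the FDR alone are not given for this comparison. These counts therefore have no background to be read against. *Fzd2* stood at log2 -0.93 ± 0.15 SE (edgeR FDR = 0.00121), or 1.91-fold less than in input. *Fzd9* stood at -0.53 ± 0.13 SE (edgeR FDR = 0.00995) and *Fzd10* at -0.71 ± 0.30 SE (edgeR FDR = 0.0888). These 3 members had the lowest IgG RIP over input values of the family, and the comparison shares its libraries with the other two. *Fzd2* was called lower without input replicate 1 (-1.03) and under DESeq2 size factors (-1.01), total counts (-1.03) or TMM over coding and noncoding genes (-1.10), and *Fzd10* without IgG RIP replicate 3 (-1.08). The targets *Fzd1*, *Fzd3*, *Fzd5*, *Fzd6* and *Fzd7* had IgG RIP over input values between -0.24 and 0.02, none past the FDR.

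Because the scaling between libraries moved the calls, each member was also expressed as a share of all Frizzled counts in its library, which needs no scaling. *Fzd3* made up 69.6%, 76.0% and 67.9% of Frizzled counts with the CELF2 antibody, 60.5%, 57.9% and 56.6% with IgG and 61.1%, 58.8% and 53.8% in the input libraries. Its share was above both controls in each library, at 71.2% ± 4.29 (SD, n = 3) against 58.3% ± 1.97 and 57.9% ± 3.76 (exact permutation test, two-sided, p = 0.1 in both comparisons, the smallest that 3 against 3 allows, adjusted p = 0.167 over 20 tests of 10 members). No other member had a share above either control without overlap. The shares of *Fzd2* (2.19% ± 0.495, 4.21% ± 0.382 and 6.95% ± 1.03 with the CELF2 antibody, with IgG and in input), *Fzd4* (0.964% ± 0.123, 1.76% ± 0.198 and 1.39% ± 0.146), *Fzd9* (2.13% ± 0.643, 4.09% ± 0.276 and 5.08% ± 0.229) and *Fzd10* (0.294% ± 0.11, 0.768% ± 0.270 and 1.10% ± 0.173) were below both controls without overlap. Those of *Fzd7* and *Fzd8* were below IgG RIP only, and those of *Fzd1*, *Fzd5* and *Fzd6* overlapped both. Since *Fzd3* held most of the counts, the shares were taken again without it. *Fzd1* then lay above both controls in each library (30.8% ± 0.875, against 24.7% ± 1.20 in IgG RIP and 23.7% ± 0.768 in input), and *Fzd2* again lay below both (7.55% ± 0.644, 10.1% ± 0.723 and 16.5% ± 0.956). *Fzd4* then overlapped input and stayed below IgG RIP, whereas *Fzd9* and *Fzd10* overlapped IgG RIP and stayed below input. *Fzd5* (4.42% ± 1.43 against 2.62% ± 0.293) and *Fzd8* (14.8% ± 0.999 against 11.9% ± 0.396) lay above input and overlapped IgG RIP. *Fzd6* and *Fzd7* overlapped both controls.

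Ratios of counts between 2 members within a library gave the same kind of scaling-free comparison. Of 45 pairs of members, 22 had ratios in CELF2-KI RIP that did not overlap those of IgG RIP, 31 did not overlap those of input, and 18 were separated the same way from both. These counts were near those of all pairs of tested genes, of which 52.2% were separated from IgG RIP, 69.3% from input and 38.6% the same way from both. All 90 tests were exact permutation tests of 3 against 3 libraries (two-sided), for which the smallest possible p is 0.1, and a separated pair had an adjusted p of 0.17. Separated pairs were thus about as frequent as among all genes, and the pairs below are given as description only. Between relatives of a subfamily, the largest difference in ratio was that of *Fzd1* and *Fzd2*. The log2 ratio of *Fzd1* to *Fzd2* was 2.07, 2.16 and 1.87 with the CELF2 antibody, 1.32, 1.11 and 1.43 with IgG and 0.66, 0.52 and 0.40 in the input libraries. The 3 conditions did not overlap, and the mean in CELF2-KI RIP exceeded that in IgG RIP by 0.75 and that in input by 1.51. The log2 ratio of *Fzd2* to *Fzd7* differed from that in IgG RIP by -0.35 and from that in input by -1.26, without overlap in either comparison. The ratio of *Fzd1* to *Fzd7* was above that in IgG RIP (0.40, no overlap) and overlapped input (0.25). The ratio of *Fzd3* to *Fzd6* was higher by 0.59 relative to IgG RIP and 0.63 relative to input, without overlap. That of *Fzd5* to *Fzd8* was higher by 0.56 relative to IgG RIP without overlap, whereas the values overlapped those of input (0.41). *Fzd9* to *Fzd10* was separated from input (0.66) and not from IgG RIP (0.42). In the order of change over IgG RIP, from *Fzd3* through *Fzd5*, *Fzd1*, *Fzd6*, *Fzd7*, *Fzd8*, *Fzd4*, *Fzd2* and *Fzd9* to *Fzd10*, only *Fzd3* and *Fzd5* were neighbours whose ratio was separated from that in IgG RIP (0.38), and that ratio overlapped input (0.14).

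**Figure D4:**
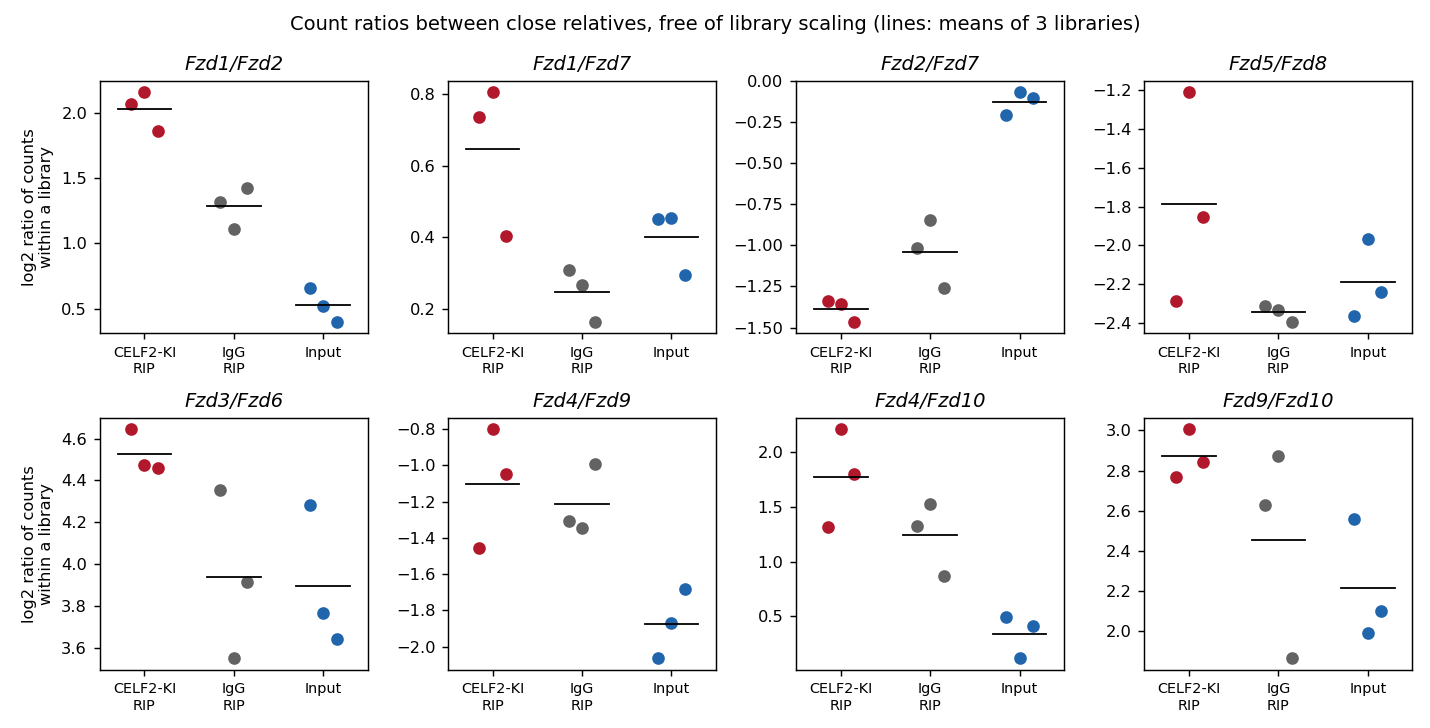
Log2 ratio of the counts of 2 members within each library, for 8 pairs, in CELF2-KI RIP (red), IgG RIP (gray) and input (blue), with a line at the mean of 3 libraries and a separate y axis for each pair. *Fzd4*, alone in its subfamily, is paired with *Fzd9* and with *Fzd10*. For *Fzd1* over *Fzd2* the 3 conditions form 3 separate groups, with means of 2.03, 1.29 and 0.53.

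At the level of transcript rows, 8 of the 10 genes had a single row, *Fzd5* had 2 and *Fzd6* had 6. Kallisto shares reads among transcripts that have sequence in common, so a row of the latter genes is an estimate. In *Fzd5*, NM_001042659.1 took 0%, 8.70% and 45.5% of the gene's counts in replicates 1, 2 and 3 with the CELF2 antibody, 49.2%, 100% and 100% with IgG and 32.3%, 8.63% and 21.1% in the input libraries, and NM_022721.3 took the rest. The split differed widely between replicates of a condition. In *Fzd6*, NM_001162494.1 took 35.1%, 53.9% and 49.0% with the CELF2 antibody, 0.0192%, 36.2% and 2.33% with IgG and 50.1%, 57.5% and 51.7% in the input libraries. Input replicates, the deepest libraries, resembled each other for this row, and IgG RIP replicates did not. When each of 39137 rows was tested, the *Fzd3* row alone among the 16 was called higher than both controls (0.496% of all tested rows), at log2 1.73 over IgG RIP (edgeR FDR = 0.00109) and 1.27 over input (edgeR FDR = 0.00324). Its counts were those of the gene, at log2 1.97 and 1.77 in the fit over genes, and only the scaling and fit differed. The *Fzd1* row was called higher over IgG RIP (1.19; edgeR FDR = 0.00141) and passed the FDR under 2-fold over input (0.78; edgeR FDR = 0.0076). For IgG RIP over input, the *Fzd2* row was called lower (-1.19; edgeR FDR = 0.008), which the fit over genes did not call. The *Fzd5* rows had log2 values of -0.80 ± 1.44 SE and 3.59 ± 1.72 SE over IgG RIP (edgeR FDR = 0.799 and 0.217), so the isoform behind the rise of the gene could not be told. The same held for the 6 *Fzd6* rows, none of which passed. The call of the *Fzd3* row was lost without any one of the 3 input replicates and with the replicate number as a block, which left 0 rows called. Counts of *Fzd4*, *Fzd8*, *Fzd9* and *Fzd10* were whole numbers within 0.001 in all 9 libraries, whereas the single rows of *Fzd1*, *Fzd2*, *Fzd3* and *Fzd7* held fractional counts in some libraries.

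**Figure D5:**
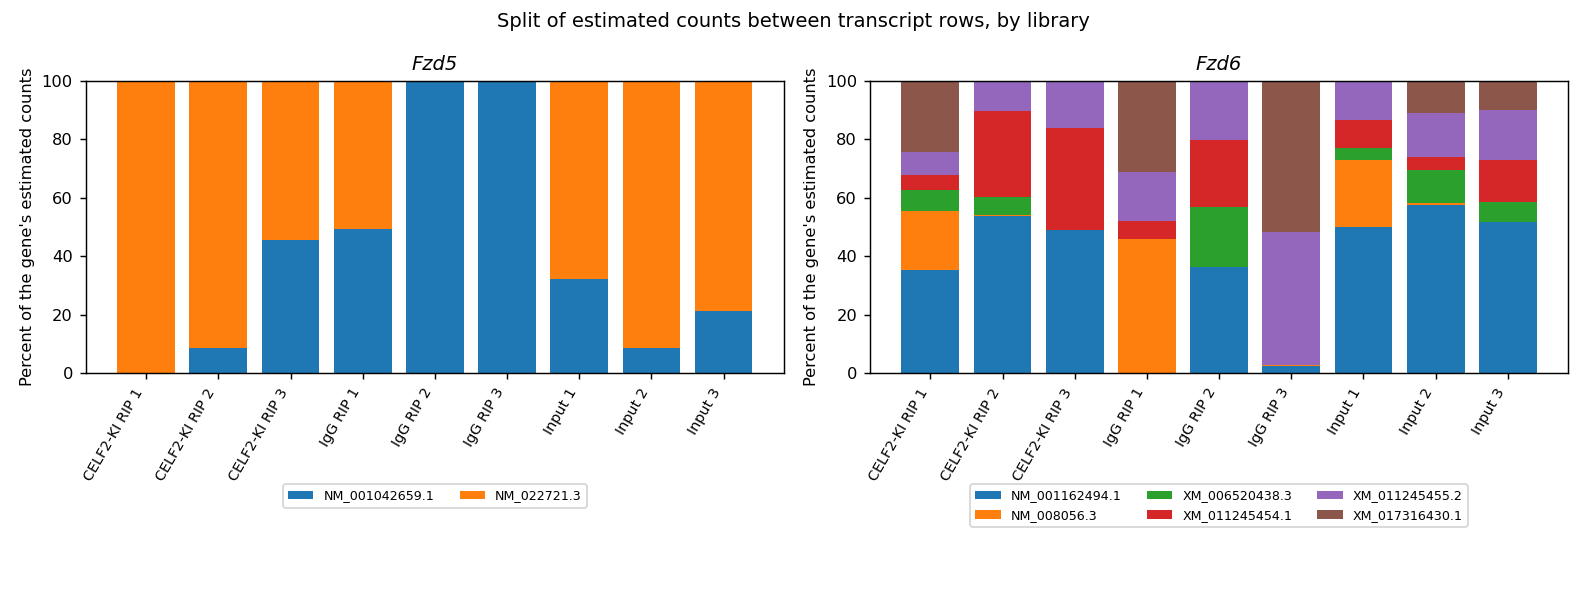
Percent of the estimated counts of *Fzd5* (left, 2 rows) and *Fzd6* (right, 6 rows) assigned to each transcript row, in each of the 9 libraries (stacked bars from 0 to 100). The *Fzd5* row NM_001042659.1 takes from none of the counts to 45.5% in CELF2-KI RIP and from 49.2% to all of them in IgG RIP.

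*Fzd3*, the member with the most counts, was used to ask which other genes had the most similar profile over the 9 libraries. The measure was the root mean square difference of log2 CPM after each gene was centred on its own mean. The nearest of 15266 genes were *Selenoi*, an enzyme of phospholipid synthesis, at 0.0864, *Arl5b*, a small GTPase of the Golgi, at 0.0905, *Bri3bp* at 0.104, *Tmem179* at 0.113 and *Zfp383*, a zinc finger gene, at 0.114. Their log2 fold changes over IgG RIP lay between 1.80 and 2.18, and those over input between 1.57 and 1.93. Values near those of *Fzd3* follow from how these genes were picked and are no separate result. Within the family, *Fzd5* was the closest, at rank 218 (0.246), followed by *Fzd1* at rank 407 (0.294) and *Fzd6* at rank 915 (0.383). *Fzd2* and *Fzd10* were the farthest, at ranks 5720 and 8159.

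Other genes of the Wnt pathway were read against the same background of 13.4% higher and 13.6% lower over IgG RIP. Among ligands, 17 of 20 could be tested, and 2 rose over IgG RIP and 15 were not called (median log2 0.50). *Wnt5a*, a ligand of the noncanonical branch, rose over IgG RIP (log2 1.55, edgeR FDR = 0.00391), as did *Wnt9a* (log2 1.53, edgeR FDR = 0.000619), and both were targets. Over input, 3 ligands rose and 1 fell, namely *Wnt2b*, *Wnt5a* and *Wnt9a* against *Wnt6*, with *Wnt2b* and *Wnt6* named after their values were seen. Of 9 coreceptors and alternative Wnt receptors, edgeR called 0 over IgG RIP (median 0.55), DESeq2 also called 0, and before adjustment 6 had a p under 0.05 upward and 0 downward. The share of all tested genes at that unadjusted p is not given, and the 13.4% above does not apply to it. Over input 2 rose, *Lrp6* (log2 1.15, edgeR FDR = 5.88e-05) and *Reck* (log2 1.04, edgeR FDR = 0.00738), both named after their values were seen. Secreted inhibitors, with 9 of 10 tested, had 1 gene called over IgG RIP, in the upward direction (median 0.34). It was *Sfrp1*, a soluble Frizzled-like protein that captures Wnts (log2 1.39, edgeR FDR = 0.000131), and it was a target. Over input 1 rose, again *Sfrp1*, and 1 fell, *Sfrp5*, named after its value was seen. Regulators of receptor turnover, with 8 of 9 tested, had 3 that rose and 1 that fell over IgG RIP (median 0.77). *Znrf3*, a ubiquitin ligase that removes Frizzleds from the membrane, rose (log2 1.61, edgeR FDR = 2.59e-05) and was the 1 target. *Rspo2*, whose product blocks that ligase, rose over IgG RIP (log2 1.72, edgeR FDR = 0.00102) and its relative *Rspo3* fell (log2 -1.24, edgeR FDR = 0.00243). The third that rose was the R-spondin receptor *Lgr4* (log2 1.30, edgeR FDR = 7.08e-05), named after its value was seen. The 3 Dishevelled genes, which act inside the cell next to the receptors, did not share a direction (median -0.97). *Dvl1* fell below IgG RIP (log2 -2.61, edgeR FDR = 0.000165) and the other two were not called. *Dvl1* was at 13.4, 14.3 and 5.35 CPM with the CELF2 antibody, 88.5, 67.7 and 47.2 CPM with IgG and 4.66, 6.90 and 5.48 CPM in the input libraries. Its IgG RIP values therefore stood above input (log2 3.58, edgeR FDR = 0.000167), and CELF2-KI RIP was not called over input (log2 0.96, edgeR FDR = 0.0347). Planar polarity partners, 8 of 8 tested, had 1 that rose over IgG RIP, *Vangl2* (log2 1.55, edgeR FDR = 0.000127), and 7 that were not called (median 0.61). Of 7 genes that β-catenin is known to switch on, *Ccnd1* rose (log2 1.87, edgeR FDR = 0.000433), *Sp5* fell (log2 -1.79, edgeR FDR = 0.00113) and 5 were not called over IgG RIP (median -0.11). None of these lists was tested against the others.

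Markers of several cell types also differed between the conditions. Calls of markers are over IgG RIP unless stated, where 13.4% of all tested genes were called higher and 13.6% lower. The summed CPM of 7 excitatory neuron markers was 1671 to 2279 with the CELF2 antibody, 894 to 1041 with IgG and 971 to 1135 in the input libraries, and 4 of the 7 were called higher over IgG RIP. That of 7 inhibitory neuron markers was 599 to 736, 346 to 399 and 485 to 497, with 2 called higher. Of 8 radial glia markers 4 were called lower over IgG RIP, with sums of 509.6 to 968, 768 to 853 and 1167 to 1369. Sums for 5 astrocyte markers (442 to 478, 262 to 292 and 417 to 424), 5 oligodendrocyte precursor markers (547 to 655, 546 to 573 and 489 to 557) and 6 endothelial markers (177 to 257, 162 to 364 and 213 to 336) included 1 astrocyte marker called higher and 1 endothelial marker called lower. For microglia, 6 of 7 markers could be tested, and 1 was called higher and 2 lower (93.4 to 127, 59.3 to 79.8 and 130.5 to 167). All 5 markers of red blood cells tested were called lower (92.7 to 94.96, 366 to 584 and 877 to 1135). Over input, 14.6% of all tested genes were called higher and 15.5% lower. There, 3 excitatory neuron markers were called higher, and 1 inhibitory neuron marker was called higher and 1 lower. Called lower were 4 radial glia, 2 oligodendrocyte precursor, 2 endothelial and 4 red blood cell markers. Microglia had 1 higher and 4 lower, and no astrocyte marker was called. The 1 higher was *Csf1r*, at 0, 2.93 and 3.39 CPM with the CELF2 antibody and at 0 in all 3 input libraries. Its ranges overlapped, so this call rests on libraries without counts. No marker was at 0 in all libraries. *Celf2* itself was at 469.7, 797 and 647 CPM with the CELF2 antibody, 267, 231 and 199.8 CPM with IgG and 304, 278 and 305 CPM in the input libraries and was a target (log2 1.46, edgeR FDR = 9.69e-05). Its highest library was CELF2-KI RIP replicate 2, which was also the highest of the 3 for *Fzd1*, *Fzd3*, *Fzd4*, *Fzd5* and *Fzd6*. The part of the cell type markers in the Frizzled values was not tested. Without CELF2-KI RIP replicate 2, *Fzd1*, *Fzd3*, *Fzd5* and *Fzd7* were targets, and the log2 fold change over IgG RIP was 1.71 for *Fzd3* and 1.28 for *Fzd5*.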

How the data were processed

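RNA was measured in 9 libraries, and the groups came from the labels. The study's methods describe rRNA depletion, directional libraries, FastQC 0.11.9, fastp 0.23.4, Ribodetector 0.3.1 and kallisto 0.51.1, with mm10 as the build in the submitters' notes. The authors deposited estimated counts per RefSeq transcript in 1 table, not normalized for depth or length. The paper names an Ensembl transcriptome, although the rows carry RefSeq accessions. All columns were used, and 0 were left out.

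The RefSeq genes of assembly GRCm38.p6 gave the gene of each row, from the accession without its version, and the positions. Of 107384 rows, 20662 (19.2%), with 9.24% to 43.5% of a library's counts, had no entry there and were dropped. Counts were summed per gene and rounded. Protein-coding genes that reached 0.5 CPM in 3 or more libraries were fitted together with edgeR 4.0.16 (limma 3.58.1, R 4.3.3), a mean per condition and TMM scaling. The SE was derived from the log2 fold change and the F statistic. Shares and ratios of counts, the latter with 0.5 added, were compared by exact permutation tests. The profile comparison used log2 CPM with a prior count of 2. Python 3.11.15, pandas 2.3.3 and matplotlib 3.10.9 were used, and the steps were tested on simulated data. Without molecular identifiers, copies made by PCR are counted too, and errors cover the spread of these libraries only.

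The members, the gene lists and the tests were chosen with earlier results of these data known. Named genes are all members, *Celf2*, at most 2 genes called over IgG RIP in each direction from each pathway list, by size of change, and the 5 genes nearest to *Fzd3*. Other genes are named as chosen after their values were seen.

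Sampling noise did not account for the differences between replicates (chi-square per gene 11.8 to 43.0). Deviations from the condition mean of same-numbered libraries correlated across 15267 genes at 0.110, 0.117 and 0.122 for CELF2-KI RIP with input, -0.056, 0.0429 and 0.0139 for CELF2-KI RIP with IgG RIP, and 0.0305, 0.0646 and 0.0384 for IgG RIP with input. The pairing of CELF2-KI RIP with input by number thus rests on these correlations and not on the labels, and the replicate number was an alternative. Other alternatives were 4 scalings, no filter, DESeq2 1.42.0, glmTreat, curated (NM_) or version-matched rows only, only the groups compared, and leaving out each library. Transcript and protein sequences and other experiments of the study were not used here.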

Additional observations from a re-analysis of the deposited data

How the results depend on the processing

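Of 610 alternative values of the members' log2 fold changes, 515 kept direction and call, 57 lost the call, 12 gained one and 26 changed sign. Targets numbered 5 in the fit reported. They numbered 3 (*Fzd1*, *Fzd3* and *Fzd5*) with DESeq2 size factors, upper quartiles, the DESeq2 Wald test, NM_ rows only, version-matched rows only or only the groups compared, 2 (*Fzd3* and *Fzd5*) with total counts or TMM over coding and noncoding genes, 1 (*Fzd3*) with glmTreat, 4 without the filter, and 3 to 6 with 1 library left out, with 3 without input replicate 2 and 6 without CELF2-KI RIP replicate 1. Among all genes the fit reported had 1157 targets, against 376 with TMM over coding and noncoding genes, 519 with upper quartiles and 237 with total counts. There were 836 with DESeq2 size factors, 876 with the DESeq2 Wald test, 852 without the filter and 121 with glmTreat. NM_ rows left 749, version-matched rows 662 and only the groups compared 688. With 1 library left out there were 783 to 1363. For the counts over 1 control that follow, the shares of all genes in these settings are not given. Over IgG RIP, 5 members became 4 with DESeq2 size factors, upper quartiles, TMM over coding and noncoding genes or the DESeq2 Wald test. They also became 4 without the filter or with only the groups compared. They became 3 with total counts, NM_ rows or version-matched rows, 2 with glmTreat, and 4 to 6 with 1 library left out. Over input, 6 became 5 without the filter and 4 with DESeq2 size factors, the DESeq2 Wald test, NM_ rows or version-matched rows. They became 3 with upper quartiles or only the groups compared, 2 with total counts or TMM over coding and noncoding genes, and 1 with glmTreat. With 1 library left out they numbered 4 to 7. The 1 transcript row became 2 with upper quartiles, 0 with glmTreat, and 0 to 1 with 1 library left out. Apart from the settings that test 2-fold or remove rows or libraries, the cause of these changes was not tested.

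The replicate block in the fit of 9 libraries left 5 members called over IgG RIP, 6 over input and the same 5 targets, and took the transcript rows from 1 to 0. The replicate block with CELF2-KI RIP and input libraries only gave 3 over input, as did the same libraries without it, and *Fzd9* at -0.091. IgG RIP over input kept 0 called higher in every fit.

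Values near 0 changed sign. *Fzd10* over IgG RIP was -0.18 with total counts, -0.083 with upper quartiles, -0.041 with TMM over coding and noncoding genes, and -0.027 to 0.54 with 1 library left out. *Fzd9* over input was -0.00058 with DESeq2 size factors, -0.00090 with the DESeq2 Wald test, -0.32 with total counts, -0.10 with upper quartiles, -0.25 with TMM over coding and noncoding genes and -0.086 with only the groups compared. For IgG RIP over input, *Fzd4* was -0.029 with TMM over coding and noncoding genes. *Fzd5* was -0.053 with DESeq2 size factors or the Wald test, -0.074 with total counts, -0.15 with TMM over coding and noncoding genes, -0.0081 without the filter, and -0.10 to 0.10 with 1 library left out. *Fzd7* was 0.024 with upper quartiles, 0.12 with NM_ rows, 0.06 with version-matched rows, and -0.18 to 0.11 with 1 library left out. As a share of Frizzled counts, *Fzd5* minus IgG RIP ranged from -0.171 to 0.0573 percentage points with 1 library left out, and *Fzd6* was at 0.555 with NM_ or version-matched rows. *Fzd10* had 24 to 73 counts per RIP library, the fewest of the family, and *Fzd5* had 61 to 100 per IgG RIP library. Whether depth set the calls of either was not tested.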

Other observations

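The 3 *Celsr* genes encode atypical cadherins that act beside Frizzled in planar polarity and axon guidance. *Celsr3*, the partner of *Fzd3* in axon guidance, was at 1515, 1913 and 1807 CPM with the CELF2 antibody, 1470.0, 1470.2 and 1212 CPM with IgG and 622, 647 and 696 CPM in the input libraries. CELF2-KI RIP was above input in each library (log2 1.41, edgeR FDR = 1.16e-05), but IgG RIP was too (log2 1.08, edgeR FDR = 0.000262), and CELF2-KI RIP over IgG RIP was not called (log2 0.33, edgeR FDR = 0.0401). *Celsr1* (405, 490.4 and 481 CPM with the CELF2 antibody, 307, 317 and 244 CPM with IgG and 159, 154 and 164 CPM in the input libraries) rose over input (log2 1.53, edgeR FDR = 8.13e-06) and passed the FDR under 2-fold over IgG RIP (log2 0.67, edgeR FDR = 0.00118). *Celsr2* was at 2174, 2786 and 2473 CPM with the CELF2 antibody, 1463, 1381 and 1225 CPM with IgG and 1072, 989.7 and 1078 CPM in the input libraries, and it likewise rose over input (log2 1.24, edgeR FDR = 1.85e-05) and stayed under 2-fold over IgG RIP (log2 0.87, edgeR FDR = 0.000161). *Vangl2*, the 1 target among these partners, was at 274, 523 and 347 CPM with the CELF2 antibody, 143, 129 and 120.5 CPM with IgG and 131, 132 and 142 CPM in the input libraries, with IgG RIP and input at a similar level. The *Celsr* genes were named after their values were seen, and the difference between them and *Fzd3* was not tested.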
